A study of Homo sapiens with 30 samples.

Results

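The genes described here encode plasma membrane and lysosomal carriers of amino acids in sorted human breast cancer cells. They were taken by symbol: every protein-coding gene named SLC1A, SLC3A, SLC7A, SLC36A, SLC38A or SLC43A followed by digits, 40 of the 19951 protein-coding genes of the annotation. By family these were 7 SLC1A, 2 SLC3A, 13 SLC7A, 4 SLC36A, 11 SLC38A and 3 SLC43A genes. The symbol does not set what a protein carries, and SLC43A3 is known as a purine nucleobase carrier. The cells were 2 subclones, numbered 13 and 2, of MDA-MB-231, a human triple-negative breast cancer line, marked with lentiviral LeGO barcodes and grown in NSG mice, which lack T, B and natural killer cells. Each subclone descends from a single marked clone, so a difference between them is a difference between 2 clones of 1 line. In a retransplantation experiment sorted subclone 2 was labelled as lung or liver metastasis of mice 4, 5 and 6, giving 2 groups of 3 samples. In the first experiment both subclones were sorted from lung metastases, liver metastases and primary tumours of mice 1, 2 and 3, giving 6 groups of 3 samples. The labels do not say whether the organ of a retransplantation sample is where the cells were collected for transplantation or where they grew afterwards. Retransplantation lung and liver below are the names in these labels. The age and sex of the mice are not given in the sources used here.

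Amino acid carriers work as exchangers, which swap one amino acid for another, as sodium-coupled or proton-coupled pumps, or as facilitators that follow the gradient. SLC3A2 is a heavy chain without transport activity of its own, and it brings light chains such as SLC7A5, SLC7A6, SLC7A7 and SLC7A11 to the cell surface. SLC38A2 and SLC1A5 load the cell with small neutral amino acids and glutamine, which SLC7A5 can exchange for leucine and other large neutral amino acids, and lysosomal carriers such as SLC38A9 report amino acid supply to the kinase complex mTORC1.

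RNA was measured as read counts per gene. The 24 libraries of the first experiment held 6537371 to 71987751 counts, and the 3 libraries from subclone 13 of mouse 1 were summed in each organ, which gave 18 samples of 11807225 to 82218315 counts. The 6 retransplantation samples held 23406778 to 32322333 counts. Levels are given as CPM, counts scaled to library size with TMM factors, and levels of different genes are compared only as CPM per kilobase of exon (RPKM). Values are listed in the order of the mouse numbers. Genes that mark MDA-MB-231 (VIM, CD44, EGFR, LGALS1, S100A4, AXL and KRT18) summed to 4984 to 14804 CPM, whereas the luminal and epithelial markers low in this line summed to 7.87 to 20.8 CPM. Marker lists of other cell types were detected at lower levels. Over the samples of the first experiment the endothelial list summed to 12.5 to 47.8 CPM, mostly PECAM1 (up to 42.4 CPM), and the fibroblast list to 6.88 to 49.4 CPM, mostly PDGFRB (up to 36.8 CPM), with COL3A1 at up to 20.7 CPM. The hepatocyte list summed to 0.13 to 24.0 CPM (APOA1 up to 23.8, ALB up to 0.81), the lung epithelial list to 2.48 to 10.3 CPM (AGER up to 8.28, SFTPC up to 0.20), the leukocyte list to 0.37 to 4.39 CPM (LYZ up to 4.0, PTPRC up to 0.89) and the erythroid list to at most 0.38 CPM. These sums are given by group beside the results they move with. The labels do not say how reads of mouse cells were treated.

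Of the 40 transporter genes, 25 passed the count filter in both experiments, and these were the same 25. In the first experiment 10 were under the filter, SLC1A6 was listed at 0 in every sample, and SLC7A13, SLC36A2, SLC38A3 and SLC38A8 had no entry in the count table. Those under the filter were SLC1A2, SLC1A7, SLC3A1, SLC7A3, SLC7A4, SLC7A8, SLC7A10, SLC7A14, SLC36A3 and SLC38A11, and none of them exceeded 0.970 CPM in a sample. In the retransplantation experiment 11 were under the filter, with a highest value of 1.61 CPM for SLC1A7, and SLC7A13, SLC7A14, SLC38A3 and SLC38A8 had no entry. SLC3A1, the heavy chain that pairs with SLC7A9 in kidney and gut, had 3 counts over all samples of the first experiment, while its light chain SLC7A9 had 307.

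Transcripts of the glutamine and neutral amino acid carriers dominated. By mean RPKM over the 18 samples of the first experiment, SLC38A2, a sodium-coupled carrier of small neutral amino acids (153 RPKM), came first. It was followed by SLC7A5, the large neutral amino acid exchanger LAT1 (50.5 RPKM), SLC1A5, the neutral amino acid exchanger ASCT2 (41.9 RPKM), and SLC3A2, the heavy chain CD98 (33 RPKM). SLC38A2 alone took 29.1 to 50.6% of the RPKM summed over the transporters in a sample, and these 4 genes together took 69.3 to 79.9%. The sum itself lay between 311 and 487 RPKM in all 18 samples. Next came SLC38A1, another sodium-coupled carrier of small neutral amino acids and glutamine (18.1 RPKM), SLC43A3 (14.2), SLC38A10 (13.7) and SLC7A1, the main arginine and lysine carrier CAT1 (12.8). A mean above 10 RPKM was reached by 8 genes and one above 1 RPKM by 20 of the 25. At the low end SLC7A7, SLC38A5, SLC1A3 and SLC7A9 averaged 0.571, 0.298, 0.255 and 0.247 RPKM. The ranges of SLC7A5, SLC1A5 and SLC3A2 overlapped one another, whereas the lowest SLC38A2 sample (114 RPKM) lay just under the highest SLC7A5 sample (117 RPKM).

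**Figure D1:**
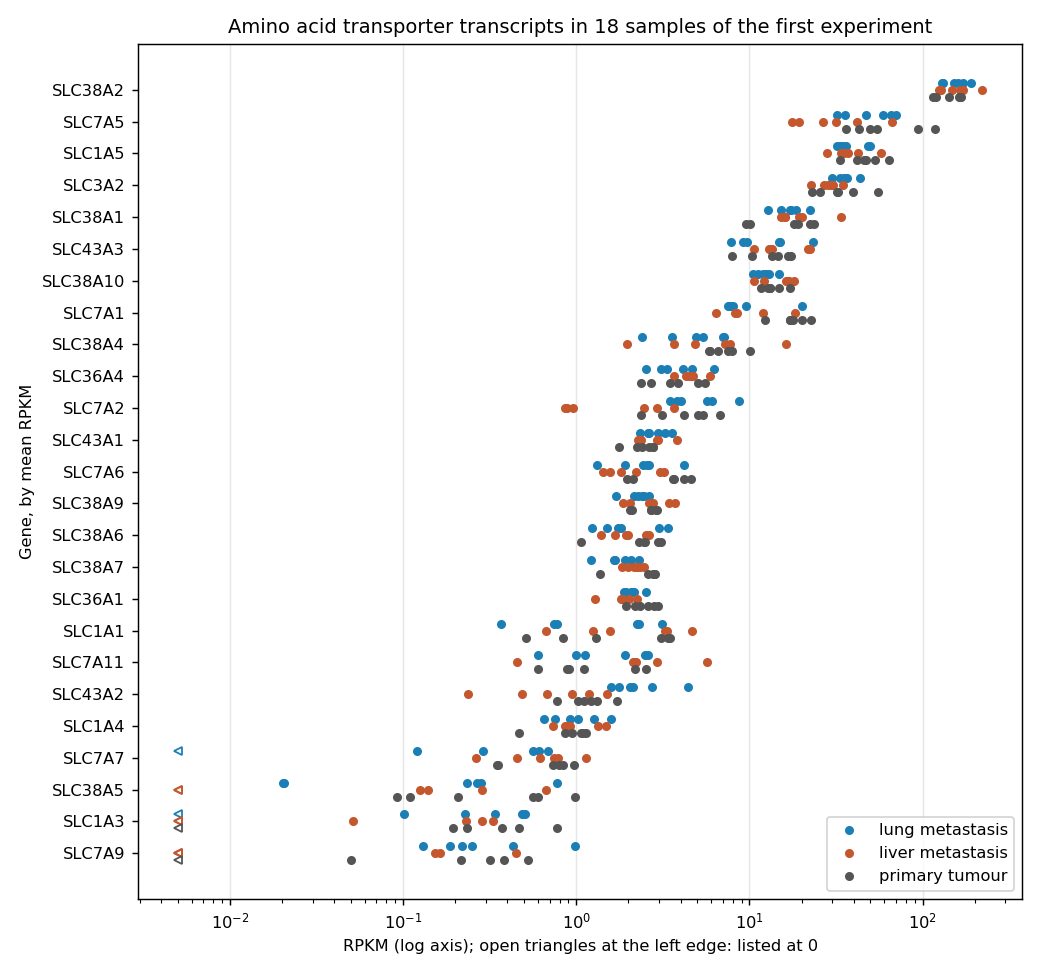
RPKM of the 25 tested transporter genes on a log axis, ordered by mean, with 1 point for each of the 18 samples of the first experiment coloured by organ. SLC38A2 forms the top of the order at 114 to 221 RPKM, and the lowest genes lie under 1 RPKM with some samples listed at 0.

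The groups were compared with edgeR's quasi-likelihood test, and p-values were adjusted over all genes tested (Benjamini-Hochberg, threshold 0.05). The lung, liver and tumour samples of both subclones came from the same mice, so each comparison was fitted without and with mouse as a term. In subclone 13 no transporter passed in either fit. The counts were 0 of 25 for lung against tumour (0.419% of all 17418 genes passed without the mouse term and 2.89% with it), 0 for liver against tumour (0.385% and 1.83%) and 0 for lung against liver (0% and 0.276%). At an unadjusted p under 0.05 the same 3 comparisons held 2, 4 and 0 transporters without the mouse term (7.76%, 5.98% and 4.55% of all genes), and DESeq2 called 0 in each (1.94%, 1.41% and 0.339% of all genes). In subclone 2, lung against tumour gave 0 calls in both fits (0.436% and 3.05% of all genes), with 3 transporters at an unadjusted p under 0.05 (9.32% of all genes) and 0 by DESeq2 (2.06%). Liver against tumour gave 0 calls without the mouse term (0.287% of all genes), with 4 at an unadjusted p under 0.05 (6.65% of all genes) and 2 by DESeq2 (1.44%). With the mouse term 3 transporters were lower, where 1.18% of all genes were lower. Lung against liver in subclone 2 gave 1 transporter, SLC43A2, among the 4 genes called in all (0.023%), and it was the only gene of the 4 that was higher (0.00574%). At an unadjusted p under 0.05 that comparison held 6 transporters (9.29% of all genes), and DESeq2 called 1 (1.45%). With the mouse term there were 2 higher transporters, against 1.63% of all genes.

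Over the 25 transporters the median log2 fold change stayed near that of all genes in these 6 comparisons, between -0.16 and 0.07 against 0.01 to 0.05 for all genes. Counting genes whose 3 samples in one group all lay on one side of the 3 in the other gave 4 of 25 in subclone 13 for lung against tumour (17.3% of all genes), 5 for liver against tumour (13.2%) and 4 for lung against liver (10.8%). In subclone 2 the counts were 5 (14.8%), 3 (9.42%) and 4 (12%). The shares among the transporters were thus near those of all genes, and the results below concern single genes.

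SLC43A2, SLC7A5 and SLC1A1 are 3 of the 4 transporters called with the mouse term, the other being SLC7A2. Their promoters are shown, read from RefSeq on build GRCh38.p14 as the 250 bases before the most 5′ annotated start, 5′ to 3′ on the gene's strand. Capitals mark a match to 1 of 3 motifs searched on both strands: TGATGNAA, an amino acid response element bound by ATF4, TGACNNNGC, an antioxidant response element, and CACGTG, the E-box bound by MYC and related factors. SLC43A2 is at chr17:1628835-1629084 on the minus strand, SLC7A5 at chr16:87869508-87869757 on the minus strand and SLC1A1 at chr9:4490218-4490467 on the plus strand.
SLC43A2: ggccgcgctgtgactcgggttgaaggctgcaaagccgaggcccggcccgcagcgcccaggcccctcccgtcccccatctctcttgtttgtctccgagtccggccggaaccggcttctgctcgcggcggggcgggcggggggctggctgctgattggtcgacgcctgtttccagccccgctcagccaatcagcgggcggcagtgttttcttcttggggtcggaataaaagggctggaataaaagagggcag
SLC7A5: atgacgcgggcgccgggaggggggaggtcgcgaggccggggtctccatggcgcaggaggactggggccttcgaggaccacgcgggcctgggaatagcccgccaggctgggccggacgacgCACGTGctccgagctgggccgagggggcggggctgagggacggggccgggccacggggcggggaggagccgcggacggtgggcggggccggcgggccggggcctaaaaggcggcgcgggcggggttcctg
SLC1A1: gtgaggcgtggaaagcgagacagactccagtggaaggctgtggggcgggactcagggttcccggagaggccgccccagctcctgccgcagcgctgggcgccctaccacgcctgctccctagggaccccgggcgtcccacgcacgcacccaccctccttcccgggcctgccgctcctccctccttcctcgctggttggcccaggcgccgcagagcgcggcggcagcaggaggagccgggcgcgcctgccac
The E-box in the SLC7A5 window began 130 bases before the start. Of the 40 transporter genes 31 had a promoter in the table. TGATGNAA was found in 1 of the 31 (SLC1A3), against 3.19% of 27305 genes, TGACNNNGC in 3 (SLC7A1, SLC7A6 and SLC7A7), against 11.1%, and CACGTG in 4 (SLC1A7, SLC38A5, SLC43A1 and SLC7A5), against 6.46%. A match is a run of letters and does not show that a factor binds there.

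SLC43A2, the sodium-independent facilitator of large neutral amino acids LAT4, was the 1 transporter that passed the test between lung and liver metastases without the mouse term, and it was higher in lung. In subclone 13 its levels were 18.7, 16.8 and 22.4 CPM in lung metastases, 12.6, 9.98 and 16 CPM in liver metastases and 10.9, 12.9 and 8.24 CPM in primary tumours. In subclone 2 they were 21.8, 29 and 47 CPM in lung metastases, 2.5, 5.16 and 7.15 CPM in liver metastases and 11.8, 18.1 and 14 CPM in primary tumours. Every subclone 2 lung sample lay above every subclone 2 tumour sample and every tumour sample above every liver sample, with no overlap between the 3 organs. In subclone 13 every lung sample also lay above every liver and tumour sample, while liver and tumour overlapped. Subclone 2 lung metastases averaged 32.6 ± 13.0 CPM and liver metastases 4.94 ± 2.33 CPM (SD, n = 3 each), a log2 fold change of 2.70 ± 0.38 (SE; edgeR adjusted p = 0.0207, and 0.000746 with mouse as a term). Within single mice the log2 ratio of lung over liver was 2.38 to 2.89. SLC43A2 lies on chromosome 17 (1569267 to 1628886, minus strand, GRCh38) and the only other annotated gene overlapping it, RN7SL105P, had 1 count in the first experiment.

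The call rested on few samples and on the spread shared by the 6 groups. Without the lung sample of mouse 2 or of mouse 3 the adjusted p was 0.0658 and 0.132 in edgeR, without all samples of mouse 2 or of mouse 3 it was 0.905 and 0.295, and with only the 2 groups compared it was 0.669, while the log2 fold change over all alternatives stayed between 2.33 and 3.05. Beside this result, subclone 2 lung metastases had 8.43 to 8.90% of their counts on the 13 mitochondrial protein genes and 14.8 to 17.3 CPM summed over 6 endothelial markers, against 3.10 to 4.85% and 28.7 to 33.7 CPM in subclone 2 liver metastases. Most of that endothelial sum was PECAM1, at 11.3 to 15.3 CPM in lung and 26.7 to 30.4 CPM in liver, which missed the threshold (edgeR with mouse as a term, adjusted p = 0.0530). Of the other 5 endothelial markers, all 5 overlapped between these organs. CDH5, VWF and CLDN5 reached at most 1.15, 0.019 and 0 CPM in lung and 0.017, 0.23 and 0.062 CPM in liver. KDR and TEK reached 2.58 and 0.887 CPM in lung and 1.73 and 2.33 CPM in liver. The mitochondrial share was not particular to this contrast. In subclone 13 it was 8.56 to 9.71% in lung metastases and 3.68 to 4.36% in liver metastases. Tumours had 2.86 to 3.45% in subclone 13 and 2.84 to 3.95% in subclone 2. After retransplantation lung (5.17 to 9.90%) and liver (5.62 to 7.01%) overlapped. The endothelial sum differed in subclone 13 too, at 12.5 to 17.8 CPM in lung and 18.3 to 47.8 CPM in liver metastases. Most of it was PECAM1 (8.31 to 11.4 CPM in lung and 13.3 to 42.4 CPM in liver). TEK was also higher in liver without overlap, CDH5 was lower there by a narrow margin, and the others overlapped. The part of these differences in the SLC43A2 result was not tested. In bulk RNA a lower level in all cells and a smaller share of expressing cells cannot be told apart.

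Against the primary tumour, SLC43A2 lay on both sides in subclone 2. Its log2 fold change was 1.16 ± 0.36 for lung (edgeR adjusted p = 0.231, and 0.0518 with mouse as a term), so lung missed the threshold in both fits. For liver it was -1.55 ± 0.36 (adjusted p = 0.104), and with mouse as a term -1.60 ± 0.31 (adjusted p = 0.00933), a call that the fit without mouse did not make. In subclone 13 the values were 0.85 ± 0.36 for lung (adjusted p = 0.529) and 0.27 for liver, and lung over liver was 0.58 ± 0.36 (adjusted p = 1.0), with lung above liver in 3 of 3 mice. The difference between subclones in lung over liver, subclone 13 minus subclone 2, was -2.12 ± 0.51 on the log2 scale (edgeR unadjusted p = 0.000572, adjusted p = 1.0, and 0.451 with mouse as a term), and no gene passed that test (0% of 17418).

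Markers of other cells also differed between metastases and primary tumours. All 5 fibroblast markers summed to 7.26 to 19.9 CPM in subclone 2 lung metastases and 6.88 to 16.1 CPM in liver metastases, against 25.3 to 28.3 CPM in its tumours, and to 9.69 to 22.2 CPM and 16.8 to 23.1 CPM in subclone 13 lung and liver metastases, against 35.4 to 49.4 CPM in its tumours. In both subclones the metastases thus lay below the tumours with no overlap. Most of the sum was PDGFRB, which with mouse as a term was lower than in tumours in subclone 13 lung (log2 fold change -1.27, edgeR adjusted p = 0.0343), subclone 2 lung (-1.33, adjusted p = 0.0280) and subclone 2 liver (-1.35, adjusted p = 0.0347). DCN, which defines fibroblasts, was at most 0.39 CPM, PDGFRA 0.889 CPM and LUM 2.62 CPM in the first experiment. The other fibroblast markers did not follow PDGFRB in subclone 2 lung metastases. COL3A1 was higher there without overlap, at 0.655 to 2.39 CPM against 0.484 to 0.637 CPM in tumours. LUM, DCN and PDGFRA reached 2.62, 0.392 and 0.410 CPM there, against 0.956, 0.064 and 0 CPM in tumours. In the other comparisons of metastases with tumours COL3A1 overlapped. The endothelial sum in subclone 2 was 28.7 to 33.7 CPM in liver metastases and 15.4 to 18.3 CPM in tumours, without overlap. Most of it was PECAM1, at 26.7 to 30.4 CPM in liver and 12.7 to 14.6 CPM in tumours. The other endothelial markers overlapped. CDH5, VWF, CLDN5 and KDR reached higher values in tumours (0.619, 0.507, 0.255 and 2.23 CPM) than in liver (0.017, 0.225, 0.062 and 1.73 CPM). TEK went the other way, reaching 1.47 CPM in tumours and 2.33 CPM in liver. The part of these markers in any transporter difference between metastases and tumours, that of SLC43A2 included, was not tested.

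**Figure D2:**
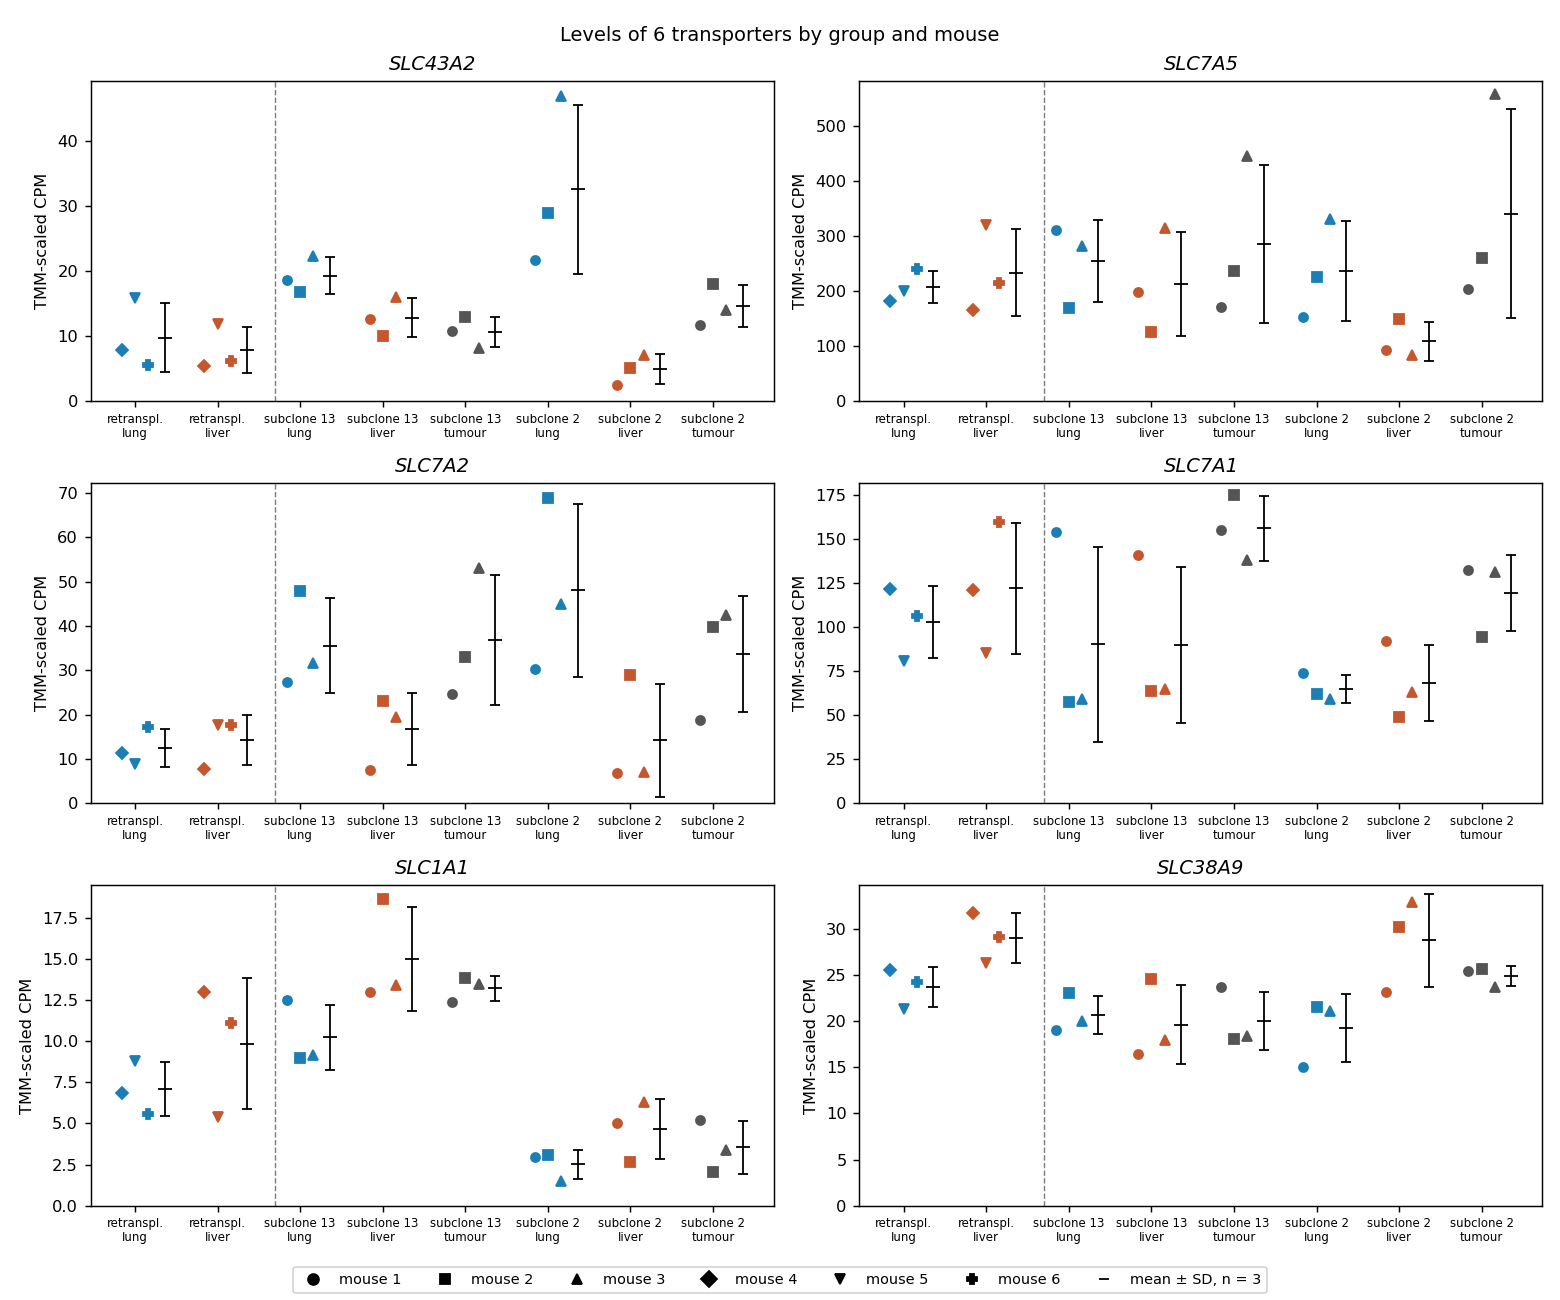
TMM-scaled CPM of 6 transporters in each group, with 1 symbol for each mouse and the mean ± SD (n = 3) beside it, retransplantation samples left of the dashed line. In the SLC43A2 panel the subclone 2 lung samples (21.8 to 47.0 CPM) lie above the liver samples (2.50 to 7.15 CPM), and in the SLC1A1 panel all subclone 13 samples lie above all subclone 2 samples of the first experiment.

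The other SLC43A genes passed no test. SLC43A1, the facilitator LAT3 for branched-chain and other large neutral amino acids, had 9.25, 10.4 and 8.23 CPM in subclone 13 lung metastases, 10.5, 8.23 and 8.34 CPM in liver metastases and 9.82, 8.4 and 7.96 CPM in tumours. In subclone 2 it had 11.5, 9.14 and 12.6 CPM in lung metastases, 10.3, 8.03 and 13.4 CPM in liver metastases and 9.29, 6.24 and 9.79 CPM in tumours. The organs overlapped for SLC43A1 in both subclones. SLC43A3 had 105, 68.2 and 43.7 CPM in subclone 13 lung metastases, 98.7, 60.9 and 48.1 CPM in liver metastases and 78.1, 75.9 and 61.3 CPM in tumours. Subclone 2 had 66.8, 41.7 and 35.3 CPM in lung metastases, 101, 58.9 and 59.5 CPM in liver metastases and 66.1, 36 and 46.4 CPM in tumours. The organs of SLC43A3 overlapped as well.

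SLC7A5 supplies the cell with leucine, phenylalanine and other large neutral amino acids as a heterodimer with SLC3A2. In subclone 13 its levels were 311, 169.6 and 282 CPM in lung metastases, 197, 126 and 314 CPM in liver metastases and 171, 237 and 445 CPM in tumours, and the organs overlapped. In subclone 2 they were 152, 225 and 331 CPM in lung metastases, 92.2, 150.0 and 83.7 CPM in liver metastases and 204, 259.8 and 556 CPM in tumours. The 3 subclone 2 liver samples were its lowest samples, below every lung and tumour sample of that subclone. Liver against tumour gave a log2 fold change of -1.65 ± 0.45 (edgeR adjusted p = 0.209), and -1.47 ± 0.34 with mouse as a term (adjusted p = 0.0298). The fibroblast sum, mostly PDGFRB, was lower as well in these liver metastases than in the tumours (6.88 to 16.1 CPM against 25.3 to 28.3 CPM). The endothelial sum, mostly PECAM1, was higher, and the part of both sums in the SLC7A5 result was not tested. Lung against liver gave 1.12 ± 0.45 (adjusted p = 0.421, and 0.106 with mouse as a term).

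The heavy chain SLC3A2 passed no test. It had 224, 156 and 182 CPM in subclone 13 lung metastases, 153, 118 and 157 CPM in liver metastases and 166, 131 and 206 CPM in tumours. The subclone 2 levels were 172, 188 and 184 CPM in lung metastases, 139.7, 179.9 and 147 CPM in liver metastases and 169, 119.6 and 285 CPM in tumours, and the organs overlapped in both subclones. The ratio of SLC7A5 to SLC3A2 on the RPKM scale was 0.622 to 0.910 in subclone 2 liver metastases, below all subclone 2 tumours (1.32 to 2.37) and all subclone 2 lung metastases (0.965 to 1.97). In subclone 13 the ratio was 1.19 to 1.69 in lung metastases, 1.17 to 2.18 in liver metastases and 1.13 to 2.36 in tumours, which overlap. A ratio within a sample shows unequal amounts of the 2 transcripts and was not tested.

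**Figure D3:**
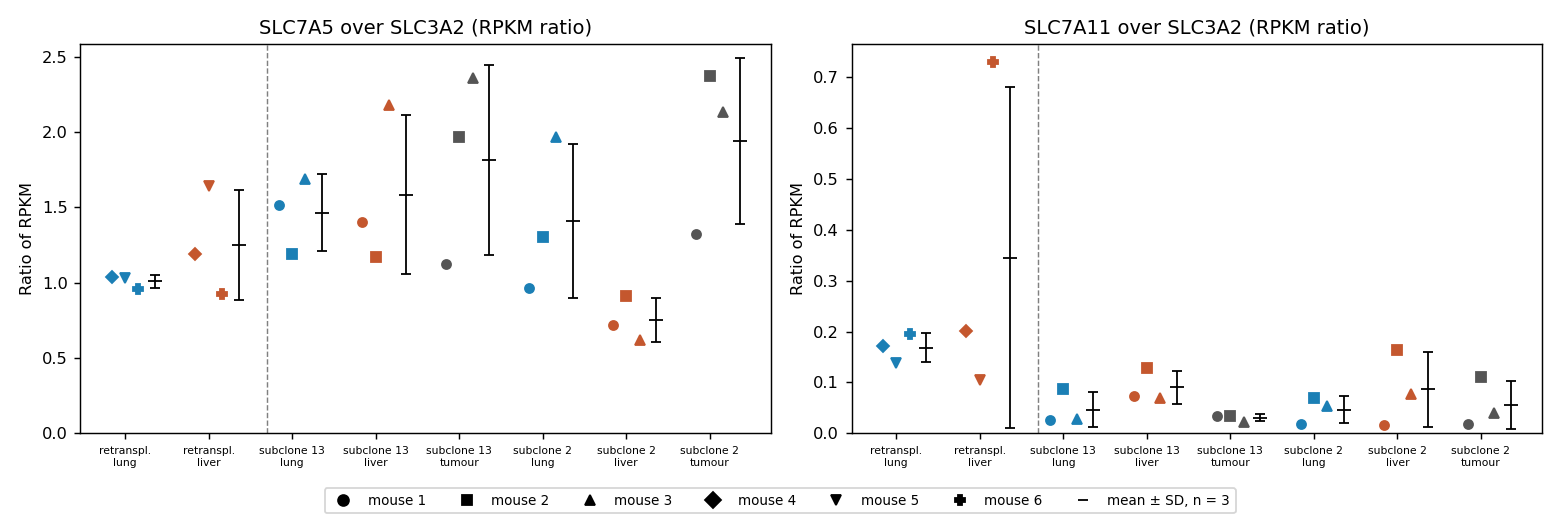
Ratio of SLC7A5 to SLC3A2 (left) and of SLC7A11 to SLC3A2 (right) on the RPKM scale, with 1 symbol for each mouse and the mean ± SD (n = 3), retransplantation left of the dashed line. In the left panel the subclone 2 liver samples lie between 0.622 and 0.910, and in the right panel 1 retransplantation liver sample stands at 0.728.

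The other light chains of SLC3A2 were scarcer. SLC7A6, which exchanges arginine for neutral amino acids with sodium, ranged from 10.004 to 27.7 CPM in subclone 13 and from 13.8 to 34.7 CPM in subclone 2. It overlaps SLC7A6OS on the opposite strand, which had 5728 counts against its own 12173, and reads without strand could be split between them. SLC7A7, a second exchanger of that kind, had 3.5, 2.89 and 3.11 CPM in subclone 13 lung metastases and 0, 0.616 and 1.47 CPM in subclone 2 lung metastases, and it passed no test. SLC7A11, the light chain of the cystine and glutamate exchanger xCT, had 10.7, 25.1 and 9.56 CPM in subclone 13 lung metastases, 21.2, 28.1 and 20.6 CPM in liver metastases and 10.7, 8.5 and 8.79 CPM in tumours. In subclone 2 it had 5.8, 24.2 and 18.3 CPM in lung metastases, 4.36, 55.1 and 21.1 CPM in liver metastases and 5.76, 24.5 and 21.1 CPM in tumours. In subclone 2 the samples of mouse 1 were the lowest in each organ, and no comparison of SLC7A11 passed. Its subclone 13 liver samples all lay above the tumour samples, with a log2 fold change of 1.32.

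Among the carriers of arginine and lysine, SLC7A2 (CAT2) was higher in subclone 2 lung than liver metastases once mouse was a term. In subclone 13 it had 27.4, 47.8 and 31.7 CPM in lung metastases, 7.59, 23.1 and 19.5 CPM in liver metastases and 24.7, 32.9 and 53.2 CPM in tumours. Subclone 2 had 30.3, 68.9 and 45 CPM in lung metastases, 6.8, 29 and 6.99 CPM in liver metastases and 18.8, 39.9 and 42.5 CPM in tumours. Lung lay above liver in 3 of 3 mice in both subclones. In subclone 2 lung over liver was 1.75 ± 0.55 on the log2 scale (edgeR adjusted p = 0.283), and 1.87 ± 0.34 with mouse as a term (adjusted p = 0.00728). Liver over tumour was -1.23 ± 0.54 (adjusted p = 0.668), and -1.37 ± 0.34 with mouse as a term (adjusted p = 0.0459). The fibroblast sum (mostly PDGFRB) and the endothelial sum (mostly PECAM1) moved with liver against tumour. The endothelial sum and the mitochondrial share moved with lung against liver in both subclones, and the part of all of these was not tested. In subclone 13 lung over liver was 1.10 ± 0.54, with an adjusted p of 1.0 and 0.140 with mouse as a term in edgeR.

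SLC7A1, the more abundant of the pair, passed in no comparison in either fit. It had 154, 57.6 and 59.4 CPM in subclone 13 lung metastases, 141, 63.9 and 64.9 CPM in liver metastases and 156, 175 and 138 CPM in tumours. The subclone 2 levels were 73.9, 62 and 59.2 CPM in lung metastases, 92, 49.4 and 63.5 CPM in liver metastases and 132, 94.5 and 131 CPM in tumours. All subclone 2 metastases lay below all subclone 2 tumours, as did their fibroblast sums, mostly PDGFRB (6.88 to 19.9 CPM against 25.3 to 28.3 CPM), whose part was not tested. The 4 subclone 13 metastases of mice 2 and 3 lay at 57.6 to 64.9 CPM, whereas those of mouse 1 (154 and 141 CPM) were level with the tumours. The log2 fold changes against tumour were close to each other, -0.79 for lung and -0.79 for liver in subclone 13 and -0.88 for lung and -0.81 for liver in subclone 2. None passed in edgeR (adjusted p = 0.627, 0.810, 0.443 and 0.704, and with mouse as a term 0.0506, 0.0719, 0.0644 and 0.102). Without mouse 1 the subclone 13 changes were -1.41 for lung (adjusted p = 0.0147) and -1.28 for liver (adjusted p = 0.0224). The subclone 13 fibroblast sums were 9.69 to 23.1 CPM in metastases and 35.4 to 49.4 CPM in tumours. The 3 libraries of the mouse 1 sample agreed closely, with 126 to 137 CPM in lung before scaling.

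**Figure D4:**
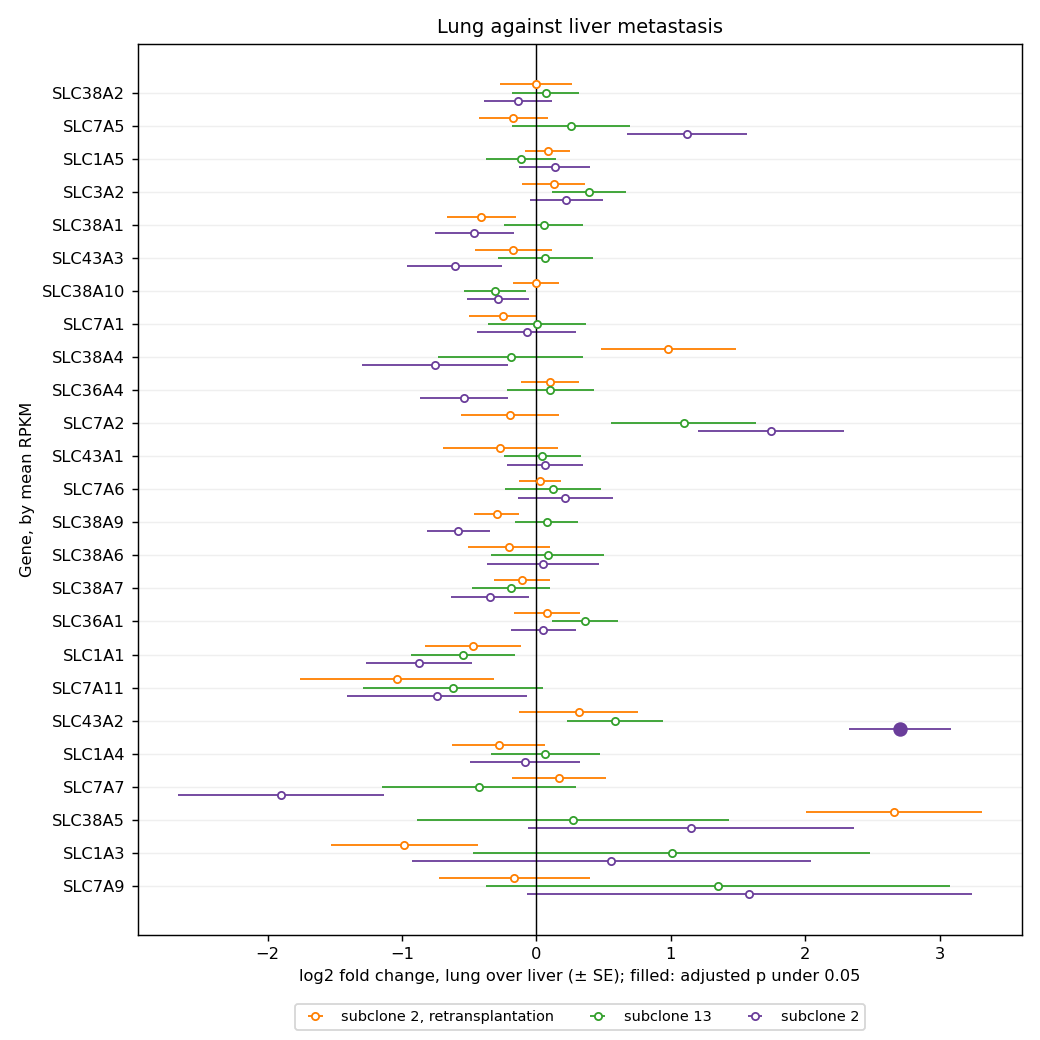
Log2 fold change of lung over liver metastasis (± SE) from edgeR for the 25 tested transporters in retransplanted subclone 2, subclone 13 and subclone 2 of the first experiment. The filled point, SLC43A2 in subclone 2 at 2.70, is the only one with an adjusted p under 0.05.

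The glutamate and aspartate carrier SLC1A1 (EAAT3, which also takes up cysteine) separated the subclones. In subclone 13 it had 12.5, 9.0 and 9.19 CPM in lung metastases, 13, 18.6 and 13.4 CPM in liver metastases and 12.4, 13.8 and 13.5 CPM in tumours. In subclone 2 it had 2.98, 3.08 and 1.47 CPM in lung metastases, 5.0, 2.68 and 6.28 CPM in liver metastases and 5.2, 2.04 and 3.36 CPM in tumours. The lowest of the 9 subclone 13 samples (9.0 CPM) was above the highest of the 9 subclone 2 samples (6.28 CPM). The log2 fold change of subclone 13 over subclone 2 was 2.02 ± 0.41 in lung, 1.69 ± 0.40 in liver and 1.90 ± 0.40 in tumour. Without the mouse term none of these passed in edgeR (adjusted p = 0.0519, 0.105 and 0.0942, where 0.184%, 0.247% and 0.109% of all genes passed). With mouse as a term all 3 did (1.98, 1.71 and 1.94, adjusted p = 0.0113, 0.0239 and 0.0193), where 0.758%, 0.976% and 0.344% of all genes passed in that direction. DESeq2 called it in all 3 organs as well. Over the alternatives the log2 fold change was 1.75 to 2.31 in lung, 1.22 to 2.02 in liver and 1.61 to 2.31 in tumour. Within single mice subclone 13 exceeded subclone 2 by 1.03 to 2.59 on the log2 scale, in 3 of 3 mice in each organ. SLC1A1 lies on chromosome 9 (4490444 to 4587469, plus strand), and SPATA6L, which overlaps it on the opposite strand, had 254 counts against its own 4758.

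Of the other transporters 1 more was called between subclones, in liver. Without the mouse term the counts called were 0 of 25 in lung, liver and tumour, with 3, 5 and 2 at an unadjusted p under 0.05 (7.03%, 7.23% and 4.36% of all genes). DESeq2 called 1, 2 and 1, and 1.26%, 1.53% and 0.482% of all genes. The second gene in liver was SLC43A2, at 9.98 to 16 CPM in subclone 13 and 2.5 to 7.15 CPM in subclone 2 liver metastases, with a log2 fold change of 1.37 ± 0.36 (edgeR adjusted p = 0.186), and 1.42 ± 0.31 with mouse as a term (adjusted p = 0.0243). In lung metastases its difference pointed the other way, at -0.76 ± 0.36 (adjusted p = 0.699). Genes whose 2 subclones did not overlap numbered 4 of 25 in lung (12.5% of all genes), 4 in liver (9.89%) and 5 in tumour (13.5%). SLC38A5, a system N carrier that can export glutamine, was among them in each organ, with 0.559 to 3.94 CPM in subclone 13 and 0 to 0.933 CPM in subclone 2, and it passed in neither fit. The hepatocyte marker list summed to 4.05 to 24.0 CPM in subclone 13 and 0.13 to 1.67 CPM in subclone 2. Nearly all of it was APOA1, ALB being at most 0.81 CPM. The fibroblast sum was also higher without overlap in subclone 13 than in subclone 2 liver metastases (16.8 to 23.1 CPM and 6.88 to 16.1 CPM) and tumours (35.4 to 49.4 CPM and 25.3 to 28.3 CPM), while in lung it overlapped. The part of these markers in the differences between subclones was not tested.

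**Figure D5:**
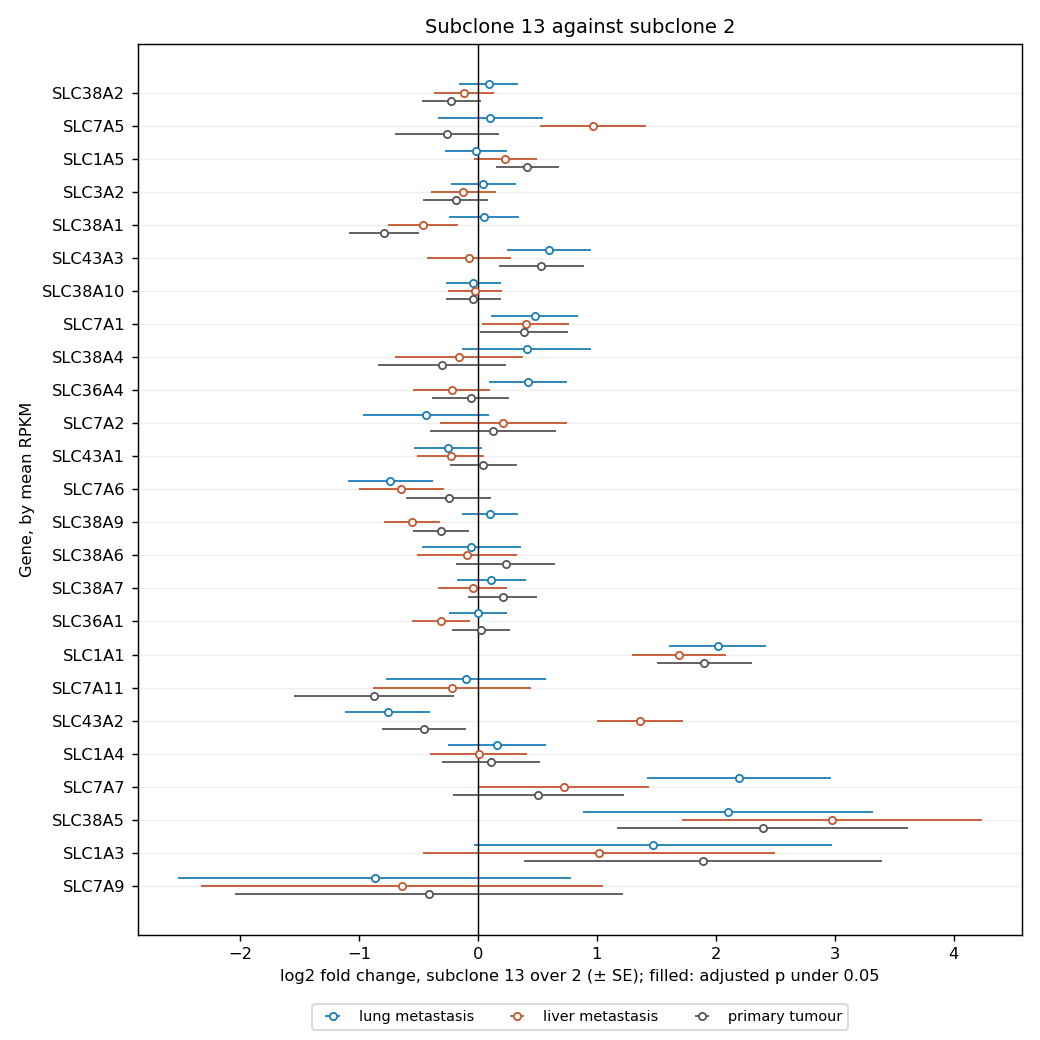
Log2 fold change of subclone 13 over subclone 2 (± SE) from edgeR for the 25 tested transporters in lung metastases, liver metastases and primary tumours. SLC1A1 lies at 1.69 to 2.02 in all 3 organs, no point is filled because none passed without mouse as a term, and the wide bars belong to the genes with the fewest counts.

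The remaining SLC1A genes passed no test. SLC1A5 had 166, 116 and 107 CPM in subclone 13 lung metastases, 190.4, 117 and 113 CPM in liver metastases and 154, 176 and 212 CPM in tumours. Subclone 2 had 162, 121 and 111 CPM in lung metastases, 142, 123 and 93.6 CPM in liver metastases and 138, 111 and 157 CPM in tumours, and the groups overlapped. SLC1A4, the exchanger ASCT1 for serine, alanine and other small neutral amino acids, had 10.9, 4.53 and 7.12 CPM in subclone 13 lung metastases, 9.25, 6.35 and 5.98 CPM in liver metastases and 7.53, 6.5 and 5.97 CPM in tumours. The subclone 2 levels were 8.79, 5.2 and 6.39 CPM in lung metastases, 10.3, 5.1 and 6.25 CPM in liver metastases and 7.37, 3.25 and 7.88 CPM in tumours. All groups of SLC1A4 overlapped. SLC1A3, the glutamate carrier EAAT1, was near the detection limit, with 1.43, 3.15 and 3.04 CPM in subclone 13 lung metastases, 0.322, 2.06 and 1.44 CPM in liver metastases and 2.33, 4.87 and 2.9 CPM in tumours. In subclone 2 it had 0, 0.634 and 2.13 CPM in lung metastases, 0, 0 and 1.78 CPM in liver metastases and 0, 1.47 and 1.22 CPM in tumours, and mouse 1 was listed at 0 in every organ.

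The SLC38 carriers of small neutral amino acids included the most abundant transcript and passed in neither fit. SLC38A2 had 870.4, 1059.9 and 1252 CPM in subclone 13 lung metastases, 819, 1129.8 and 1083 CPM in liver metastases and 1104, 754 and 793 CPM in tumours. Subclone 2 had 859, 1001 and 1128 CPM in lung metastases, 848, 1459.6 and 976 CPM in liver metastases and 934, 1072 and 1086 CPM in tumours. Its log2 fold change between organs stayed between -0.14 and 0.26 in both subclones, within the overlap of the samples. SLC38A1 had 224, 173 and 128 CPM in subclone 13 lung metastases, 152, 194 and 161 CPM in liver metastases and 181, 101 and 95.5 CPM in tumours. The subclone 2 levels were 185, 151 and 171 CPM in lung metastases, 201, 336 and 160.2 CPM in liver metastases and 235, 225 and 191 CPM in tumours. Every subclone 13 tumour was below every subclone 2 tumour, with a log2 fold change of -0.79 ± 0.30 that did not pass (edgeR adjusted p = 0.965). SLC38A4, a further carrier of this group that also takes up arginine and lysine, had 20.4, 29.1 and 22.2 CPM in subclone 13 lung metastases, 20.03, 31.8 and 30.1 CPM in liver metastases and 32.8, 24.2 and 24.6 CPM in tumours. In subclone 2 it had 14.8, 9.96 and 29.6 CPM in lung metastases, 8.08, 67.4 and 15.2 CPM in liver metastases and 41.8, 31.3 and 27.4 CPM in tumours. The liver sample of mouse 2 was its highest and that of mouse 1 its lowest. SLC38A10, whose role is less well known, had 86.3, 80.5 and 114 CPM in subclone 13 lung metastases, 140.0, 81.8 and 125 CPM in liver metastases and 101, 99.3 and 114 CPM in tumours. Subclone 2 had 92, 96.6 and 100.1 CPM in lung metastases, 127, 94.2 and 131 CPM in liver metastases and 89.8, 101 and 132 CPM in tumours, and its organs overlapped.

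Carriers of the lysosome and the proton-coupled SLC36A family passed no test either. SLC38A9, the lysosomal arginine sensor upstream of mTORC1, had 19, 23 and 20.1 CPM in subclone 13 lung metastases, 16.5, 24.6 and 17.9 CPM in liver metastases and 23.7, 18.1 and 18.4 CPM in tumours. The subclone 2 levels were 15, 21.6 and 21.1 CPM in lung metastases, 23.2, 30.2 and 33 CPM in liver metastases and 25.4, 25.7 and 23.7 CPM in tumours. All subclone 2 lung samples lay below all its liver and tumour samples, and lung over liver was -0.58 ± 0.23 on the log2 scale without passing (edgeR adjusted p = 0.429). SLC36A1, a proton-coupled carrier of glycine, alanine and proline found on lysosomes, had 14.9, 14.4 and 15 CPM in subclone 13 lung metastases, 12.8, 8.89 and 12.6 CPM in liver metastases and 16.3, 20.6 and 15.2 CPM in tumours. In subclone 2 it had 17.7, 13.1 and 13.4 CPM in lung metastases, 14.1, 12.9 and 15.7 CPM in liver metastases and 13.5, 18.1 and 19.5 CPM in tumours. Both subclone 13 metastasis groups lay below the tumours, with log2 fold changes of -0.23 for lung and -0.60 for liver. SLC36A4, the related carrier PAT4, had 60.5, 32.5 and 39.95 CPM in subclone 13 lung metastases, 43.4, 45.1 and 35.5 CPM in liver metastases and 49.1, 33.8 and 26 CPM in tumours. Subclone 2 had 45.1, 24.3 and 30.05 CPM in lung metastases, 57.1, 41.9 and 45.5 CPM in liver metastases and 53.3, 37.5 and 23 CPM in tumours, and its organs overlapped. SLC38A7, a lysosomal glutamine carrier, ranged from 11.5 to 19.5 CPM in subclone 13 and from 8.47 to 20.003 CPM in subclone 2. SLC38A6 ranged from 7.17 to 15.5 CPM in subclone 13 and from 5.45 to 17.4 CPM in subclone 2, and it overlaps TRMT5, whose 18903 counts exceed its own 6708.

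In the retransplantation experiment no transporter passed in lung against liver, with 0% of the 17549 genes passing without the mouse term and 0.479% with it. At an unadjusted p under 0.05 there was 1 transporter (12.5% of all genes), and DESeq2 called 0 (2.3% of all genes). That gene was SLC38A5, with 0.814, 0.484 and 1.21 CPM in lung and 0.255, 0.122 and 0.0312 CPM in liver, a log2 fold change of 2.66 ± 0.65 (edgeR adjusted p = 0.201) on 82 counts in all. Groups that did not overlap numbered 2 of 25 (19.1% of all genes), SLC38A5 higher and SLC38A9 lower in lung. SLC38A9 had 25.5, 21.3 and 24.2 CPM in lung and 31.7, 26.3 and 29.2 CPM in liver, with a log2 fold change of -0.29.

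SLC43A2 had 7.89, 15.8 and 5.65 CPM in retransplantation lungs and 5.43, 11.9 and 6.2 CPM in retransplantation livers, and the groups overlapped. Its log2 fold change of lung over liver was 0.31 ± 0.44 in retransplanted subclone 2, against 2.70 ± 0.38 in subclone 2 of the first experiment. The difference between experiments was -2.35 ± 0.58 over the genes in both tables (edgeR adjusted p = 0.574), and -2.41 ± 0.43 with mouse as a term (adjusted p = 0.0409), where 0.0152% of 19721 genes passed in that direction. Without the mouse term 0 transporters passed this test (0.00507% of all genes), with 5 at an unadjusted p under 0.05 (6.22% of all genes), and DESeq2 called SLC43A2 (0.106% of all genes). The experiments also differ in sequencing run and in the mice, which cannot be told apart from retransplantation.

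The other genes with a call in the first experiment were set side by side in the same way. SLC7A2 had 11.4, 9.0 and 17.3 CPM in retransplantation lungs and 7.85, 17.6 and 17.7 CPM in retransplantation livers, with no separation of the organs. SLC7A5 had 182, 199.7 and 240.0 CPM in lung and 166, 320.4 and 214 CPM in liver, and its ratio to SLC3A2 was 0.960 to 1.04 in lung and 0.924 to 1.65 in liver. SLC1A1 had 6.85, 8.82 and 5.57 CPM in lung and 13, 5.38 and 11.1 CPM in liver, and these values overlapped the ranges of both subclones in the first experiment. SLC7A11 stood higher in rank, at position 8 by mean RPKM, with 61, 54.5 and 99.4 CPM in lung and 57.2, 41.6 and 343 CPM in liver. The liver sample of mouse 6 was the highest by far. Levels in the 2 experiments were scaled separately and were not compared by test.

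Markers of other cells stand beside these values. The erythroid list, almost entirely HBB, summed to 0.908 to 9.02 CPM in retransplantation lungs and 0.13 to 0.22 CPM in retransplantation livers, without overlap. The other lists overlapped between lung and liver in their sums. Their sums in lung and liver were 15.2 to 28.9 and 9.17 to 25.8 CPM for fibroblasts, 19.8 to 31.5 and 9.39 to 22.9 CPM for endothelium, and 6.95 to 9.23 and 6.19 to 8.85 CPM for lung epithelium. Leukocyte markers summed to 4.61 to 11.1 CPM in lung and 2.81 to 10.3 CPM in liver, and hepatocyte markers to 0.57 to 0.86 CPM in lung and 0.50 to 0.68 CPM in liver. Single members went both ways within a list. With mouse as a term SFTPC, HBB and COL3A1 were the markers of these 6 lists that passed, all higher in lung (log2 fold changes of 7.39, 4.47 and 4.40, edgeR adjusted p = 0.0167, 0.0211 and 0.0167). COL3A1 was at 8.20 to 18.01 CPM in lung and 0.40 to 0.81 CPM in liver, whereas PDGFRB of the same list was at 6.35 to 14.8 CPM in lung and 8.29 to 24.9 CPM in liver. SFTPC was at 0.876 to 3.49 CPM in lung and at most 0.030 CPM in liver, whereas AGER of the same list was at 3.51 to 4.66 CPM in lung and 4.67 to 7.36 CPM in liver. PTPRC of the leukocyte list was at 1.12 to 2.99 CPM in lung and 0.297 to 0.334 CPM in liver. LYZ, CD68 and ITGAM of that list overlapped. The part of these markers in the transporter values was not tested.

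Genes that use or sense the same amino acids were followed as 6 lists. Among 15 amino acid response genes, DDIT4, an inhibitor of mTORC1, was higher in liver metastases than in tumours in both subclones, by 2.52 ± 0.47 in subclone 13 (edgeR adjusted p = 0.0177) and 2.77 ± 0.48 in subclone 2 (adjusted p = 0.0163) on the log2 scale. In the same order 0.385% and 0.287% of all genes passed. ATF4 and ASNS passed in no comparison. With mouse as a term DDIT4 and CEBPB were higher (1.90 and 1.09) and the amino acid sensor kinase EIF2AK4 was lower (-0.72) in subclone 2 lung metastases than in tumours. Between subclone 2 lung and liver metastases CEBPB (0.99) and EIF2AK4 (-0.78) passed in the same fit, and PPP1R15A was lower in subclone 13 liver metastases than in tumours (-1.26). Of all genes, 3.05% passed in that fit for subclone 2 lung against tumour and 2.95% for its lung against liver. For subclone 13 liver against tumour the share was 1.83%. The list's median log2 fold change without the mouse term was 0.06 and -0.14 in subclone 13 and 0.28 and -0.12 in subclone 2 for lung and liver against tumour.

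The other 5 lists held no call without the mouse term in these comparisons. With mouse as a term, of 15 tested amino acid transporters outside the rule, the taurine carrier SLC6A6 was lower in lung metastases than in tumours in both subclones (-0.71 in subclone 13 and -0.66 in subclone 2). The proline carrier SLC6A20 was higher in subclone 2 lung than in tumour (4.0), it was lower in subclone 13 than in subclone 2 lung (-4.78), and the mitochondrial basic amino acid carrier SLC25A29 was higher in subclone 2 lung than in liver (1.19). Of 10 tested genes of serine, glycine, proline and cysteine synthesis, ALDH18A1, which makes the proline precursor, was lower in subclone 13 lung than in tumour (-0.73), and PHGDH, which opens serine synthesis, was higher in subclone 13 than in subclone 2 liver metastases (5.13). Of 23 genes of lysosomal amino acid sensing SESN3 was lower in subclone 2 lung than in liver (-1.31) and higher in subclone 13 than in subclone 2 lung (1.63). Of 9 glutathione and cystine genes NFE2L2, the antioxidant factor NRF2, was lower in liver than in tumour in both subclones (-0.87 in subclone 13 and -0.73 in subclone 2). Of 11 tested enzymes of glutamine, glutamate and branched-chain amino acids none passed. SESN2 and CHAC1 each stand in 2 of these lists. With mouse as a term, 2.89% and 3.05% of all genes passed for lung against tumour in subclones 13 and 2. For liver against tumour the shares were 1.83% and 1.68%. For subclone 2 lung against liver 2.95% of all genes passed, and between subclones 1.54% in lung and 1.5% in liver.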

How the data were processed

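RNA of sorted human tumour cells was measured in 24 samples. Per the labels' protocols, libraries were made with a TruSeq v2 kit, which does not mark strand. Per the submitters' processing notes, bcl2fastq 2.15.0.4, cutadapt, STAR, featureCounts and the build GRCh38 were used, with no order or settings given there. The authors deposited raw counts per gene in 1 table for each experiment. Symbols and exon lengths came from the GENCODE annotation supplied with the genome. The 9 libraries of subclone 13 of mouse 1 were summed to 3 samples, although the labels call only some of them technical repeats.

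Counts were tested with edgeR 4.0.16 in R 4.3.3 (TMM scaling, filterByExpr, quasi-likelihood test, Benjamini-Hochberg adjustment over all genes tested, threshold 0.05), with all groups of an experiment in 1 fit. There were 14 comparisons. For ratios within a mouse 0.5 CPM was added to both values. The mouse numbers in the labels pair the samples: what was left after subtracting each group mean correlated at a median of 0.44 (lowest 0.0535) for the 45 pairs that shared a mouse and -0.30 for the 90 that did not, and at 0.338 (lowest 0.313) for 3 pairs against -0.231 for 6 after retransplantation. The sequencing run followed the mouse in the first experiment apart from libraries of subclone 13 of mouse 1, so the mouse term also takes up the run. The biological coefficient of variation was 0.476 (0.330 with mouse as a term) in the first experiment and 0.296 (0.227) after retransplantation. The 3 libraries of a sample of mouse 1 differed by a median of 0.20 on the log2 scale over the transporters.

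Alternatives were the mouse term, DESeq2 1.42.0, another scaling, no count filter, only the groups compared, each mouse or sample left out, and 1 library in place of the sum. Leaving out single samples was chosen after seeing the data. Every transporter was accounted for, and values in every sample were given for those that passed in either fit, the 10 with the highest mean RPKM and a list of carriers of known role. Of the other gene lists, the members that passed were named. The members and lists were chosen with earlier results of these data known. Samples of a group came from different mice. Simulated data were used only for the edgeR fit without the mouse term, for lung against liver. The simulated counts held no differences between mice. The fits with mouse as a term and the fit across both experiments were not simulated, so their calls were not checked in this way.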

Additional observations from a re-analysis of the deposited data

Results flagged for a closer look

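The lung over liver difference of SLC43A2 in subclone 2 was not the same size in the 2 experiments: the log2 fold change after retransplantation minus that in the first experiment was -2.41 ± 0.43 (edgeR with mouse as a term, adjusted p = 0.0409). Within single mice the log2 ratio of lung over liver was -0.13 to 0.50 after retransplantation (higher in 2 of 3 mice) and 2.38 to 2.89 in the first experiment (higher in 3 of 3 mice). Without mouse as a term the adjusted p was 0.574. The experiments also differ in sequencing run and in the mice, and the part of these cannot be told apart from that of retransplantation.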

How the results depend on the processing

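The 14 pairs of a gene and a comparison followed here were those called in the reported fit or in at least 1 alternative. All 224 alternative values kept the sign of the reported log2 fold change, with 5 calls lost and 32 gained. Pairs chosen for a call in these data largely fix that agreement of sign, so it shows only how far the values moved. Of 245 alternative counts of called transporters, 216 were close to the reported count, many of them because both counts were 0. The mouse numbers pair the samples, and with mouse as a term (replicate block) the counts called were 3 for liver against tumour in subclone 2, where the fit without it gave 0, and 2 for lung against liver in subclone 2, where that fit gave 1. Between subclones 13 and 2 they were 1 in tumour, 1 in lung and 2 in liver, and 1 for the difference between retransplantation and the first experiment, where the fit without the term gave 0 in each. It changed no other count. DESeq2 gave 2 for liver against tumour in subclone 2 (1.44% of all genes), and between subclones 1 in tumour, 1 in lung and 2 in liver (0.482%, 1.26% and 1.53%), and 1 for the difference between experiments (0.106%). Without the count filter, where 35 to 36 transporters in place of 25 were tested, there were 3 for liver against tumour and 2 for lung against liver in subclone 2 (0.694% and 0.657% of all genes), 1 for liver against tumour in subclone 13 (0.793%), 1, 1 and 2 between subclones in tumour, lung and liver (0.314%, 0.588% and 0.673%), and 2 for lung against liver after retransplantation (SLC1A7 and SLC38A5, 1.98%). RLE scaling, library 1 alone and library 3 alone each gave 1 between subclones in lung (SLC1A1). With only the groups compared, lung against liver in subclone 2 gave 0. Leaving out a mouse or a sample gave 0 to 1 for lung against liver in subclone 2. Without mouse 1, SLC7A1 was called in subclone 13 for lung against tumour (0 to 1) and for liver against tumour (0 to 1), and SLC1A1 between subclones in tumour (0 to 1). The cause of these changes was not tested. With 3 mice a group and at least 6537371 counts a library, genes such as SLC38A5, with 605 counts over the first experiment, had standard errors above 1 on the log2 scale.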
